A study of Mus musculus with 12 samples.

Results

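The 41 genes described here encode the machinery of DNA replication and cell division: 12 act in S phase and 29 in mitosis. They were chosen by symbol, and every probe annotated to a listed symbol with a detection p under 0.05 on at least 3 of the 12 arrays was kept. Each gene is given by its brightest kept probe, as a background-corrected, quantile-normalized log2 intensity. Of the 41 genes, 33 were measured among 12099 genes in all: 12 of 12 S phase genes and 21 of 29 mitosis genes. Mki67 and Ccnb1 had no annotated probe and were not analysed here, and no probe of Ccnb2, Bub1, Cenpe, Kif20a, Hmmr or Racgap1 was kept. Ccna2 (detected on 3, 0, 0 and 2 arrays of the groups in the order given next) and Ube2c (3, 0, 0 and 0) were kept only through Krt1+/+ epidermis, where they are high. Their contrasts with that group are therefore not independent of the filter, and mitosis counts are also given over the other 19 genes. The arrays hold newborn (P0) C57BL/6 mice in 4 groups of 3: Krt1+/+ epidermis, Krt1-/- epidermis, full-thickness Krt1+/+ skin and full-thickness Krt1-/- skin. Mice of the Krt1-/- genotype lack keratin 1, the type II keratin of the suprabasal epidermis, and no other allele or agent is named for any group. The labels do not say whether replicates came from separate animals, so p-values measure the spread between these samples.

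In the epidermis, division is confined to the basal layer and the hair follicles, and keratinocytes leave the cycle as they move up. A cell entering S phase opens its replication origins with the MCM2-7 helicase, copies DNA with polymerases held on by the PCNA clamp, and makes deoxynucleotides through ribonucleotide reductase, thymidylate synthase and thymidine kinase. Genes of S phase are typically driven by E2F factors. Genes of mitosis are typically bound by the DREAM complex, MYB-MuvB, FOXM1 and NF-Y, at a cell cycle homology region (CHR) and CCAAT boxes, and their products build the spindle, attach chromosomes to it and cut the cell apart.

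The promoter sequences differed between both lists in those letters. RefSeq windows (GRCm38.p6), from 250 bases before to 50 after the annotated start, were available for 35 of the 41 genes. The CHR letters searched were TTTGAA or TTTAAA or TTCGAA or TTCAAA, the CCAAT box was searched by the letters of its name, and the E2F core was TTCCCGC or TTGGCGC or TTCGCGC or TTGCCGC, each on both strands, with overlapping matches counted separately. A CHR match and a CCAAT match stood together in 21 of 24 mitosis windows (87.5%), in 4 of 11 S phase windows (36.4%) and in 11.5% of the windows of 27025 genes. The CHR letters alone were in 23 of 24 mitosis windows (95.8%), 6 of 11 S phase windows (54.5%) and 29.0% of all windows. CCAAT was in 87.5% of mitosis windows, 72.7% of S phase windows and 37.9% of all windows. An E2F core was in 6 of 11 S phase windows (54.5%), in 4 of 24 mitosis windows (16.7%) and in 9.69% of all windows. These matches describe letters, not binding sites. For 4 mitosis and 3 S phase genes, chosen by name, 120 bases of the window are given here. Each stretch was chosen to hold CHR and CCAAT matches (mitosis) or E2F core and CCAAT matches (S phase), and then most matches. Of the other genes named in the results, some lack such matches in the whole window, and others, such as Cdk1, Plk1 and Mcm5, hold them. Among the mitosis genes, Nusap1 held no CHR or CCAAT match, and Birc5 and Anln no CCAAT match. Among the S phase genes, Pcna and Mcm2 held no E2F core, and Ccne1 and Tk1 no E2F core or CCAAT match. Tyms held no match to any of these motifs. Capitals mark a match to any of the 3 motifs, and each sequence runs 5′ to 3′ on the gene's strand.
Prc1, chr7:80294357-80294476, plus strand: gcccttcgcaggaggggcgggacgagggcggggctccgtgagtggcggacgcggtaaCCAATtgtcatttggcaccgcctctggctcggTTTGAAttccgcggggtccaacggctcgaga
Kif23, chr9:61946771-61946890, minus strand: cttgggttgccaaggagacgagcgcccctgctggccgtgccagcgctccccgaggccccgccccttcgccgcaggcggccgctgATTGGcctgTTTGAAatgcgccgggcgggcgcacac
Cenpa, chr5:30666773-30666892, plus strand: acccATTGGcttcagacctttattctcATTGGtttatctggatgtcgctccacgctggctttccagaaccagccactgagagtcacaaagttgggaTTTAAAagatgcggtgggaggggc
Top2a, chr11:99024261-99024380, minus strand: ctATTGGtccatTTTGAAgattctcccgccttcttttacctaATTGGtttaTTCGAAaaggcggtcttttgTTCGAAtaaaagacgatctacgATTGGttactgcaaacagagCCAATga
Mcm7, chr5:138171846-138171965, minus strand: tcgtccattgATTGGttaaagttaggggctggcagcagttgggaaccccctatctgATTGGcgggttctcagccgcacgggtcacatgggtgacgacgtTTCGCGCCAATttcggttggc
Mcm3, chr1:20820265-20820384, minus strand: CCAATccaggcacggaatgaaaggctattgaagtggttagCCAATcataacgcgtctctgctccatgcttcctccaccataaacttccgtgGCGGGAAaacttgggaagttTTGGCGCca
Mcm6, chr1:128359705-128359824, minus strand: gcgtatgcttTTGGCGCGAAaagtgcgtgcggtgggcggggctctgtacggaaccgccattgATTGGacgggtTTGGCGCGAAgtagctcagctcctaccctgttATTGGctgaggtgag
In Prc1 and Kif23 a single CCAAT box, read as ATTGG on the other strand in Kif23, stood close before a single TTTGAA. The Top2a stretch held 3 CHR and 4 CCAAT matches. The Mcm7, Mcm3 and Mcm6 stretches, chosen for E2F cores and CCAAT boxes, held no CHR match. The whole Mcm7 window held 1 CHR match, so the stretches alone do not compare the lists.

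Between 17184 and 19931 of the 45281 probes were detected per array, arrays of a group correlated at 0.966 to 0.986, and the number of arrays limits the precision. In the deposited table the Krt1+/+ epidermis and Krt1-/- skin arrays fill the first 6 columns, and the Krt1-/- epidermis and Krt1+/+ skin arrays fill the last 6. Over probes detected on no array, the arrays of each set of 6 resembled each other more than those of the other set, except Krt1-/- skin replicate 1, which joined neither (mean correlation -0.09 with its own set and -0.08 with the other). Within a tissue, genotype and this split of the columns therefore cannot be told apart. In an effect averaged over both tissues or both genotypes, an additive difference between the column sets cancels, so averaged effects are given first. For Krt1 itself the log2 difference in Krt1-/- skin was -4.71 (adjusted p = 8.12e-05). On the arrays labelled Krt1-/- epidermis its difference was -1.08 (adjusted p = 0.183), with raw intensities of 987 to 2921 against 1417 to 5954 in Krt1+/+ epidermis. Directions in epidermis thus rest on the labels alone.

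By group mean, both lists were highest in Krt1+/+ epidermis and lowest in Krt1-/- skin. For the S phase list the first place rests on Krt1+/+ epidermis replicate 1, and the last place on Krt1-/- skin replicate 3. Without Krt1+/+ epidermis replicate 1 the median S phase genotype effect in epidermis (Krt1-/- minus Krt1+/+) was 0.34. The mean log2 level of the 21 mitosis genes was 8.94, 8.75 and 8.61 on the Krt1+/+ epidermis arrays, 8.18, 8.17 and 8.48 on the arrays labelled Krt1-/- epidermis, 8.16, 8.17 and 8.10 in Krt1+/+ skin, and 8.0, 7.98 and 7.75 in Krt1-/- skin. Within each tissue the genotypes did not overlap in this mean, which includes Ccna2 and Ube2c. In epidermis this rests on Stmn1, which read 9.63 and 6.33 on the closest arrays, replicate 3 of Krt1+/+ and of Krt1-/-. Without Stmn1 the order of those arrays would be reversed. The 12 S phase genes averaged 9.09, 8.03 and 7.97 in Krt1+/+ epidermis, 7.89, 8.03 and 8.23 in Krt1-/- epidermis, 7.36, 7.71 and 7.25 in Krt1+/+ skin, and 7.62, 7.34 and 7.04 in Krt1-/- skin. Here tissues separated and genotypes overlapped. Krt1+/+ epidermis replicate 1 stood apart: it was the highest of the 12 arrays for 10 of 12 S phase genes and 7 of 21 mitosis genes. On that array the mean of 35 other replication genes was 8.16 against 7.32 and 7.23 on its replicates, while the basal keratinocyte markers were lower (11.16 against 11.56 and 11.70). Krt1-/- skin replicate 3 was the lowest array for 7 of 12 S phase and 11 of 21 mitosis genes.

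**Figure D1:**
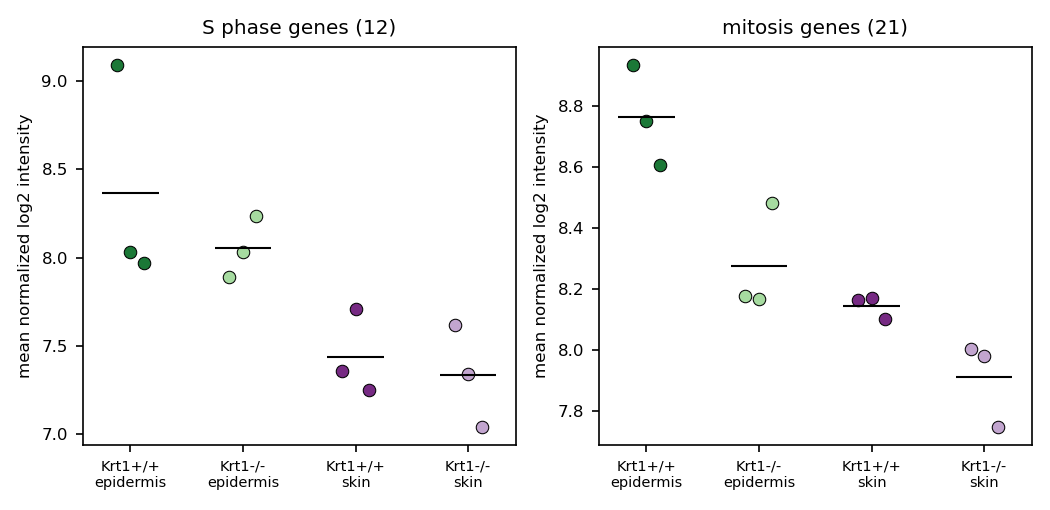
Mean normalized log2 intensity of the 12 measured S phase genes (left) and the 21 measured mitosis genes (right) on each array, by group. Points are arrays and bars are group means. One Krt1+/+ epidermis array lies at 9.09 in the left panel, above the other 11. The mitosis means of the genotypes do not overlap within either tissue, in epidermis only with Stmn1 included.

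Skin against epidermis, averaged over both genotypes, set the full-thickness samples, which add dermis and what lies under it, against epidermis alone. Cell cycle genes were lower in skin: 9 of 12 S phase genes fell and 15 of 21 mitosis genes fell (13 of 19 without Ccna2 and Ube2c), and none rose. Among all genes 42.4% were called, 23.7% lower and 18.7% higher (limma, adjusted p under 0.05). The median log2 difference was -0.78 for the S phase genes and -0.43 for the mitosis genes, against -0.09 for all genes. It lay below 0 for 12 of 12 S phase genes and 20 of 21 mitosis genes, Kif23 (0.07) being the exception. The median stayed below 0 under each of 24 other settings. Those that change only the test, or add a block for replicates or column sets, could not have moved it. When a change of at least 1.5-fold was required, 1 S phase and 1 mitosis gene passed. From bulk RNA, fewer dividing cells and less RNA per dividing cell cannot be told apart.

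Cdk1, the kinase that drives entry into mitosis, measured 9.64, 8.99 and 8.60 in Krt1+/+ epidermis and 9.41, 9.76 and 9.56 in Krt1-/- epidermis. In skin it measured 8.44, 8.68 and 8.21 (Krt1+/+) and 8.30, 7.75 and 7.57 (Krt1-/-). All Krt1-/- skin arrays lay below all epidermis arrays, and 1 Krt1+/+ skin array overlapped them. The tissue effect was -1.17 ± 0.18 (SE, n = 3 arrays in each of 4 groups), 2.25-fold lower in skin, with an adjusted p of 0.000209. Top2a, the topoisomerase that untangles sister chromosomes, measured 10.02, 9.19 and 9.18 in Krt1+/+ epidermis and 9.25, 9.27 and 9.90 in Krt1-/- epidermis. Its skin arrays gave 8.68, 9.14 and 8.63 (Krt1+/+) and 8.10, 8.31 and 7.36 (Krt1-/-). Each skin array was below each epidermis array, and the tissue effect was -1.10 ± 0.21 (adjusted p = 0.000897). The second kept probe of Top2a (ILMN_1255436) did not pass: its tissues overlapped, with an effect of -0.30 (adjusted p = 0.192).

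Among the nucleotide supply genes, Tyms, thymidylate synthase, had the largest tissue effect of the S phase list. It measured 9.43, 7.97 and 7.91 in Krt1+/+ epidermis, 8.45, 8.53 and 8.78 in Krt1-/- epidermis, 7.41, 7.89 and 7.16 in Krt1+/+ skin and 7.50, 6.77 and 6.78 in Krt1-/- skin. No skin array reached the lowest epidermis array, and the effect was -1.26 ± 0.25 (2.40-fold lower, adjusted p = 0.00125). Rrm2, the regulatory subunit of ribonucleotide reductase, spread too widely to pass the test. It measured 7.83, 6.71 and 6.44 in Krt1+/+ epidermis, 6.55, 7.21 and 7.45 in Krt1-/- epidermis, 6.23, 6.52 and 6.42 in Krt1+/+ skin, and 6.86, 6.75 and 6.01 in Krt1-/- skin. The tissues overlapped (-0.57 ± 0.24, adjusted p = 0.0750). Rrm1, the catalytic subunit, was lower in skin by -0.78 (adjusted p = 0.0122), as was the thymidine kinase Tk1 by -0.69 (adjusted p = 0.0414).

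Of the 6 helicase subunits, 5 fell by their brightest probes. Mcm2 measured 8.97, 7.52 and 7.79 in Krt1+/+ epidermis, 7.90, 8.34 and 8.07 in Krt1-/- epidermis, 7.42, 8.15 and 7.27 in Krt1+/+ skin, and 6.91, 7.01 and 6.41 in Krt1-/- skin. Mcm5 measured 10.86, 9.42 and 9.84 in Krt1+/+ epidermis, 9.71, 9.68 and 9.91 in Krt1-/- epidermis, 9.14, 9.83 and 9.15 in Krt1+/+ skin, and 9.0, 8.78 and 8.46 in Krt1-/- skin. For both, Krt1-/- skin held the lowest 3 arrays and Krt1+/+ skin replicate 2 lay within the epidermis range. Their tissue effects were -0.91 ± 0.24 for Mcm2 (adjusted p = 0.00811) and -0.84 ± 0.22 for Mcm5 (adjusted p = 0.00756), and Mcm3, Mcm4 and Mcm7 had effects of -1.18, -0.76 and -0.77. For Mcm6 the brightest probe did not pass (-0.78, adjusted p = 0.0592), while its other probes did (-0.98 and -1.12, adjusted p = 0.00333 and 0.00143). For Mcm7 the second probe (ILMN_2673889) read -0.13 and did not pass.

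Within each genotype the tissue contrast is also a contrast of the column sets, and the calls differed. In Krt1+/+ 4 of 12 S phase and 8 of 21 mitosis genes (6 of 19 without Ccna2 and Ube2c) were lower in skin and none was higher, where 41.7% of all genes were called, 22.0% lower and 19.8% higher. In Krt1-/- 6 S phase and 9 mitosis genes were lower and 3 genes were higher, where 39.5% of all genes were called, 20.1% lower and 19.3% higher. The 3 higher genes were Pcna (1.42), Stmn1 (1.86) and Tpx2 (0.58), and in Krt1+/+ the same 3 were lower in skin, by -3.71, -3.46 and -1.75. Of the genes above, Tyms was lower in skin in both genotypes (-0.95 in Krt1+/+ and -1.57 in Krt1-/-), while Cdk1 passed at -1.70 in Krt1-/- and not at -0.63 in Krt1+/+, and Top2a at -1.55 and not at -0.64. The test of that difference (Krt1+/+ minus Krt1-/-) passed for Cdk1 (1.07 ± 0.37, adjusted p = 0.0411) and not for Top2a (0.91 ± 0.42, adjusted p = 0.116). The S phase median was -0.60 in Krt1+/+ and -0.90 in Krt1-/-, and the mitosis median -0.40 and -0.44, against -0.03 and -0.04 for all genes. Without Ccna2 and Ube2c the mitosis median was -0.31 in Krt1+/+ and -0.49 in Krt1-/-.

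Cell type markers moved the same way as the tissue label. Of the basal keratinocyte markers 9 of 10 were lower in skin (median -0.92), and of the hair follicle markers 5 of 8 (median -0.54). Markers of fibroblasts were higher in skin for 7 of 8 genes (median 5.28), of skeletal muscle for 6 of 6 (median 6.50) and of endothelium for 5 of 5 (median 3.25). The endothelial genes Pecam1 and Cdh5 were detected on no epidermis array, but Egfl7 was detected on 3 arrays of each epidermis group. Tek was detected on 1 array of each, and Emcn and Kdr on 1 of Krt1-/- epidermis. Mean fibroblast marker levels were 6.15 to 6.42 in Krt1+/+ epidermis, 5.53 to 7.28 in Krt1-/- epidermis, 10.72 to 10.98 in Krt1+/+ skin and 10.46 to 10.77 in Krt1-/- skin. Their part in the cell cycle result was not tested. Of other replication genes 23 of 35 measured fell and none rose (median -0.58), and of other mitosis genes 31 of 44 fell and none rose (median -0.65).

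**Figure D2:**
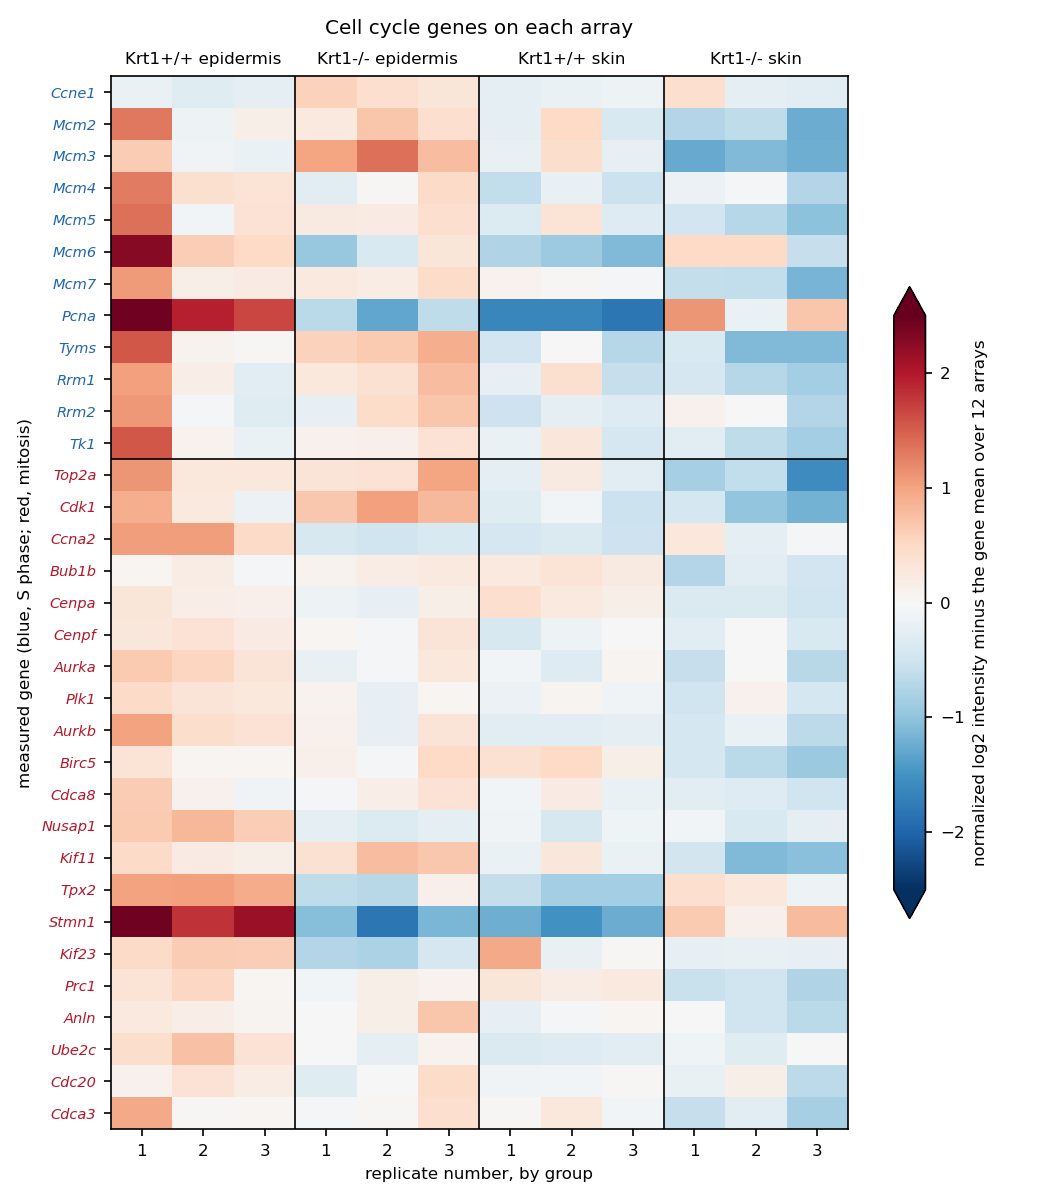
Normalized log2 intensity of each of the 33 measured genes (rows, by list and role) on each of the 12 arrays (columns, by group), minus the gene's mean over the arrays; the colour scale ends at 2.5 either way. Krt1+/+ epidermis replicate 1 is high for most S phase genes, Krt1-/- skin is low for most rows, and Pcna and Stmn1 are high in Krt1+/+ epidermis and Krt1-/- skin.

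Krt1-/- against Krt1+/+, averaged over both tissues, was the contrast in which the column split cancels. Mitosis genes were lower on the arrays labelled Krt1-/-: 8 of 21 fell (7 of 19 without Ccna2 and Ube2c) and none rose, where 24.2% of all genes were called, 13.2% lower and 10.9% higher. All 21 averaged effects lay below 0, between -0.84 and -0.04, against 55.9% of all genes, and their median was -0.34 against -0.05. At least 19 lay below 0 under each of 24 other settings. Among these, settings that change only the test, or add a block for replicates or column sets, cannot move an averaged effect. The epidermis contrast, whose direction rests on the labels, makes up an equal share of this average. Were the labels of the epidermis groups exchanged, the average would be the contrast of the column sets, in which 11 of 21 mitosis genes lay below 0 and 10 above, 4 were called lower and 5 higher, and the median was -0.0059; the lower level of the mitosis genes thus depends on those labels. Of the 12 S phase genes, 1 rose (Ccne1) and 1 fell (Mcm7), with a median of -0.22 and 10 of 12 effects below 0. With any 1 array left out, between 0 and 1 S phase gene passed the test.

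Of the 3 genes measured for the central spindle and cytokinesis, 2 fell. Kif23, the kinesin MKLP1 that bundles midzone microtubules, measured 10.15, 10.32 and 10.28 in Krt1+/+ epidermis and 8.95, 8.89 and 9.25 in Krt1-/- epidermis. In skin it measured 10.63, 9.49 and 9.71 (Krt1+/+) and 9.46, 9.49 and 9.47 (Krt1-/-). Genotypes separated in epidermis and met in skin, where Krt1+/+ replicate 1 was the highest of all arrays. The averaged effect was -0.84 ± 0.17 (95% confidence interval -1.21 to -0.47), 1.79-fold lower, with an adjusted p of 0.00339. Prc1, which crosslinks the midzone microtubules that Kif23 binds, measured 11.06, 11.25 and 10.78 in Krt1+/+ epidermis, 10.66, 10.87 and 10.81 in Krt1-/- epidermis, 11.02, 10.92 and 10.96 in Krt1+/+ skin and 10.17, 10.23 and 9.98 in Krt1-/- skin. Here skin separated and epidermis overlapped, with an averaged effect of -0.54 ± 0.11 (adjusted p = 0.00404). Anln, the anillin scaffold of the contractile ring, had an effect of -0.10 (adjusted p = 0.662).

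Of the 4 spindle genes, 2 fell. Stmn1, the microtubule-destabilizing protein stathmin, and Nusap1, which bundles spindle microtubules around chromosomes, had averaged effects of -0.81 ± 0.17 (adjusted p = 0.00426) and -0.50 ± 0.11 (adjusted p = 0.00572). For Stmn1 this is the average of opposite effects, both called: -3.48 in epidermis and 1.85 in skin. Stmn1 was thus higher, not lower, in Krt1-/- skin. Nusap1 measured 10.36, 10.54 and 10.34 in Krt1+/+ epidermis, 9.47, 9.37 and 9.50 in Krt1-/- epidermis, 9.62, 9.31 and 9.61 in Krt1+/+ skin, and 9.64, 9.33 and 9.47 in Krt1-/- skin. Only the Krt1+/+ epidermis arrays stood above the rest, and the skin genotypes overlapped. Neither Tpx2, which activates Aurora A on the spindle (-0.22), nor Kif11, the kinesin that pushes the poles apart (-0.27), passed the test.

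At the centromere, Cenpa, the histone variant that marks it, fell by 0.47 (± 0.11, adjusted p = 0.00786), and Bub1b, the checkpoint kinase BubR1, fell by 0.33 (± 0.11, adjusted p = 0.0460). Bub1b measured 9.07, 9.20 and 8.97 in Krt1+/+ epidermis, 9.11, 9.21 and 9.26 in Krt1-/- epidermis, 9.27, 9.37 and 9.26 in Krt1+/+ skin, and 8.29, 8.75 and 8.55 in Krt1-/- skin. The 3 Krt1-/- skin arrays were below the other 9, which overlapped. Birc5, survivin, which carries the chromosomal passenger complex to centromeres, showed the same layout. It measured 8.59, 8.30 and 8.29 in Krt1+/+ epidermis, 8.38, 8.20 and 8.75 in Krt1-/- epidermis, 8.63, 8.76 and 8.40 in Krt1+/+ skin, and 7.82, 7.58 and 7.33 in Krt1-/- skin. Its averaged effect was -0.49 ± 0.14 (adjusted p = 0.0203), and the other passenger genes, Aurkb (-0.34, adjusted p = 0.107) and Cdca8 (-0.21, adjusted p = 0.314), did not pass.

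Ccna2, the cyclin of S phase and G2, was measured on 5 arrays only, the 3 of Krt1+/+ epidermis and 2 of Krt1-/- skin. Its probe read 5.76, 5.77 and 5.19 in Krt1+/+ epidermis, 4.31, 4.22 and 4.33 in Krt1-/- epidermis, 4.30, 4.35 and 4.20 in Krt1+/+ skin, and 4.99, 4.49 and 4.66 in Krt1-/- skin. Its averaged effect (-0.43 ± 0.13, adjusted p = 0.0330) is open at the undetected end, so no fold is given, and it rests on the group through which the gene was kept. The averaged effects of Top2a, Cdk1, the spindle kinases Aurka and Plk1, Cenpf, Ube2c, Cdc20 and Cdca3 lay between -0.44 and -0.04 and did not pass.

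Of the S phase genes, Ccne1, cyclin E1, had an averaged effect of 0.40 ± 0.13 (adjusted p = 0.0413). It read 4.55, 4.41 and 4.48 in Krt1+/+ epidermis, where no array detected it, 5.29, 5.12 and 5.01 in Krt1-/- epidermis, 4.46, 4.55 and 4.58 in Krt1+/+ skin, where 2 did, and 5.13, 4.49 and 4.42 in Krt1-/- skin, where 1 did. Mcm7 measured 8.98, 8.05 and 8.11 in Krt1+/+ epidermis, 8.16, 8.09 and 8.36 in Krt1-/- epidermis, 7.99, 7.93 and 7.86 in Krt1+/+ skin and 7.32, 7.29 and 6.74 in Krt1-/- skin. Its arrays overlapped in epidermis and separated in skin (averaged effect -0.49 ± 0.17, adjusted p = 0.0495). Mcm5 (-0.45) and Mcm2 (-0.41) had similar values with adjusted p of 0.156 and 0.235.

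The mitosis count moved with the processing: it was 1 (Stmn1) when arrays were centred on their medians in place of quantile normalization, 0 when a change of at least 1.5-fold was required, and 5 without Krt1-/- epidermis replicate 2. Kif23, Stmn1, Prc1, Nusap1 and Cenpa kept their call with each of the 12 arrays left out in turn, whereas Birc5 lost it in 1, Ccna2 in 9 and Bub1b in 11 of these.

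**Figure D3:**
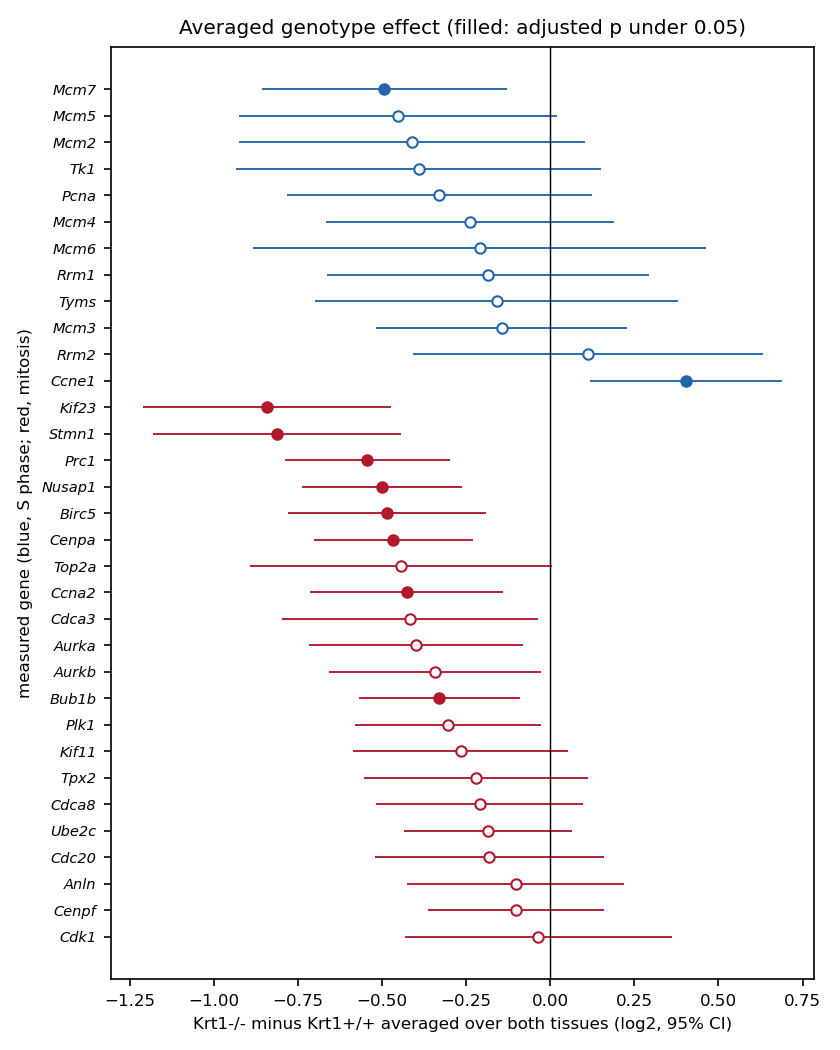
Krt1-/- minus Krt1+/+ log2 difference averaged over both tissues for each measured gene, with its 95% confidence interval from limma; filled points had an adjusted p under 0.05. Every mitosis gene lies left of 0, with 8 filled, while the S phase genes range from -0.49 to 0.40.

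Other cell cycle lists and marker lists moved in differing directions in this averaged contrast. Of all genes 24.2% were called in it, 13.2% lower and 10.9% higher, with a median of -0.05. Of other mitosis genes 11 of 44 fell and none rose (median -0.30), and of other replication genes 9 of 35 fell and none rose (median -0.33). Among the 18 transcription factors measured, 2 fell, E2f1 (-0.70, adjusted p = 0.0251) and Tfdp2 (-0.61), a dimer partner of E2F factors. Foxm1, the activator of mitosis genes, was at -0.43 (adjusted p = 0.0528) and Mybl2 at -0.43 (adjusted p = 0.233), and 4 factors rose, Myc among them (0.87, adjusted p = 0.00185). Myc was detected on 1 array of Krt1+/+ epidermis, 3 of Krt1-/- epidermis and 2 of each skin group. Its genotypes overlapped in skin. In the G1 list 2 of 22 rose and 3 fell: Ccnd2 (-0.85), the inhibitor Cdkn2c (-0.85) and Ccnd1 (-0.66, adjusted p = 0.0163). The cell cycle inhibitor Cdkn1a was at -0.04 and Cdkn1b at -0.28, neither of them called. Cdkn1b was detected only on 2 arrays of Krt1+/+ epidermis and 1 of Krt1+/+ skin, so its value is not independent of the filter. Hair follicle markers fell for 4 of 8 genes (median -0.67): their mean level was 8.19 to 8.43 in Krt1+/+ epidermis, 7.22 to 7.62 in Krt1-/- epidermis, 7.42 to 7.71 in Krt1+/+ skin and 6.48 to 7.57 in Krt1-/- skin. Of the basal markers 3 of 10 fell (median -0.19), of the T cell markers 3 of 4 (median -1.15) and of the endothelial markers 3 of 5 (median -0.37). Medians were above 0 for suprabasal keratinocyte (0.06), fibroblast (0.09), skeletal muscle (0.13) and erythroid (0.56) markers. They were below 0 for macrophage and dendritic cell (-0.34), adipocyte (-0.23), mast cell (-0.17) and melanocyte (-0.13) markers. Of the T cell markers, Cd3e, Cd3d and Cd2 were detected on no Krt1-/- skin array, Cd3g on 1 and Thy1 on 3. Within epidermis 1 of the 4 measured T cell markers rose and 3 fell. The part of these cells in the mitosis result was not tested.

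Within the tissues, the genotype effects on individual cell cycle genes were larger and, as among all genes, often opposed. In epidermis 2 of 12 S phase genes rose and 2 fell, and 6 of 21 mitosis genes fell (4 of 19 without Ccna2 and Ube2c) and none rose, where 31.8% of all genes were called, 15.0% higher and 16.8% lower. In skin 1 S phase gene rose and 2 fell, and 2 mitosis genes rose and 6 fell, where 30.7% were called, 14.4% higher and 16.2% lower. No gene of the 33 was called in the same direction in both tissues, and 4 were called in opposite directions (Pcna, Stmn1, Tpx2 and Mcm3). Among all 12099 genes 669 were called the same way in both tissues and 1081 in opposite ways. Called or not, the 2 effects had opposite signs for 17 of the 33 genes and for 6461 of all 12099. Opposed effects are thus not particular to these lists. The test of the difference between the effects, epidermis minus skin, passed for 12 of the 33, 5 higher and 7 lower (Ccna2 and Ube2c among the 7), where 30.9% of all genes passed, 15.8% higher and 15.1% lower. In this design that contrast is also the last minus the first columns.

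Stmn1 and Pcna, the clamp that holds polymerases on DNA, moved most. Stmn1 measured 9.90, 9.28 and 9.63 in Krt1+/+ epidermis and 6.40, 5.66 and 6.33 in Krt1-/- epidermis, but 6.25, 5.96 and 6.22 in Krt1+/+ skin and 8.13, 7.59 and 8.26 in Krt1-/- skin. Pcna measured 8.85, 8.35 and 8.09 against 5.73, 5.11 and 5.77 in epidermis, and 4.79, 4.79 and 4.60 against 7.52, 6.25 and 7.10 in skin. For both, the first 6 columns held every high value and the last 6 every low one, with no overlap. Stmn1 was 11.1-fold lower in Krt1-/- epidermis (-3.48 ± 0.24, adjusted p = 9.83e-07) and 3.61-fold higher in Krt1-/- skin (1.85 ± 0.24, adjusted p = 0.000119). Pcna was 7.43-fold lower (-2.89 ± 0.30, adjusted p = 1.88e-05) and 4.70-fold higher (2.23 ± 0.30, adjusted p = 0.000138). Each had a single annotated probe, so no second probe bears on these values, and the averaged effect of Pcna was -0.33 (adjusted p = 0.282).

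Tpx2 and the brightest probe of Mcm6 also had their higher group means in the first 6 columns, with smaller steps and with overlap between the column sets. Tpx2 measured 8.32, 8.34 and 8.26 against 6.68, 6.64 and 7.44 in epidermis, and 6.72, 6.47 and 6.48 against 7.73, 7.59 and 7.19 in skin, with the genotypes apart in both tissues. It was 2.62-fold lower in Krt1-/- epidermis (adjusted p = 0.000435) and 1.92-fold higher in Krt1-/- skin (adjusted p = 0.00565). Mcm6 measured 11.72, 10.07 and 9.94 against 8.50, 9.06 and 9.74 in epidermis, and 8.70, 8.54 and 8.34 against 9.96, 9.94 and 8.87 in skin. Its effect was -1.48 ± 0.44 in epidermis (adjusted p = 0.0214), lost without Krt1+/+ replicate 1 or Krt1-/- replicate 1 or 2 of that tissue, and 1.06 ± 0.44 in skin (adjusted p = 0.0863).

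Mcm3, a partner of Mcm6 in the same helicase ring, ran the other way. It measured 6.58, 5.85 and 5.77 against 6.92, 7.31 and 6.72 in epidermis, and 5.76, 6.37 and 5.73 against 4.68, 4.83 and 4.72 in skin. The Krt1-/- arrays were the highest in epidermis and the lowest in skin. The effects were 0.92 ± 0.24 (adjusted p = 0.0118), with adjusted p up to 0.0583 when Krt1+/+ replicate 2 or 3 or Krt1-/- replicate 2 was left out, and -1.21 ± 0.24 (adjusted p = 0.00248). Ccne1 was the other S phase gene that rose in epidermis, by at least 1.38-fold (adjusted p = 0.0164), and lost the call without Krt1+/+ replicate 2 or Krt1-/- replicate 1. Mcm7 fell in skin by 0.81 (± 0.24, adjusted p = 0.0206) and lost the call without Krt1-/- replicate 3 or Krt1+/+ replicate 1 or 2.

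The other mitosis genes that fell in epidermis were Kif23 (2.33-fold), Nusap1 (1.96-fold), Ccna2 (at least 1.85-fold, group means 5.57 and 4.29) and Ube2c. Ube2c, the ubiquitin-conjugating enzyme of the anaphase-promoting complex, was at least 1.31-fold lower (group means 5.07 and 4.50, adjusted p = 0.0179) and lost the call without either replicate 2. Both Ccna2 and Ube2c were kept through Krt1+/+ epidermis alone, so these calls are not independent of the filter. These bounds set the detected group against the background level, since neither gene was detected on an array labelled Krt1-/- epidermis. In skin the genes that fell were Birc5 (2.03-fold, adjusted p = 0.00159), Top2a (1.86-fold, adjusted p = 0.0338), Kif11 (1.81-fold, adjusted p = 0.00776), Prc1 (1.79-fold, adjusted p = 0.00171), Bub1b (1.71-fold, adjusted p = 0.00257) and Cenpa (1.60-fold, adjusted p = 0.00512). Apart from Top2a, which lost it without Krt1-/- replicate 1 or 3 or Krt1+/+ replicate 1 or 2, each kept its call with any array left out. In epidermis the effects of Birc5 (0.05), Top2a (0.01), Kif11 (0.33) and Bub1b (0.11) did not pass the test. Medians were -0.08 (S phase) and -0.25 (mitosis) in epidermis, where the median of all genes was close to 0, and -0.48 and -0.33 in skin, where it was -0.07. Without Ccna2 and Ube2c the mitosis median was -0.20 in epidermis and -0.37 in skin. Without Krt1+/+ epidermis replicate 1 the S phase median in epidermis turned to 0.34, 6 in place of 3 S phase genes passed in skin, and 6 in place of 3 passed for the difference between tissues. Without Krt1+/+ replicate 2 or Krt1-/- replicate 1 or 2 of epidermis, 2 in place of 4 S phase genes passed there.

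**Figure D4:**
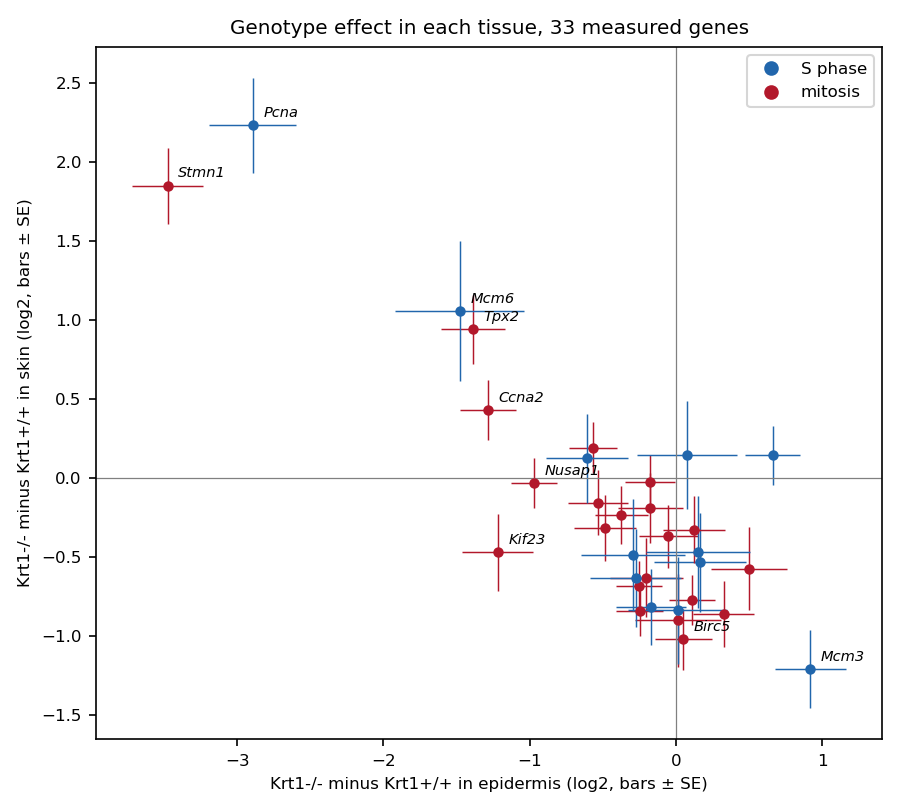
Krt1-/- minus Krt1+/+ log2 difference in epidermis (horizontal) and in skin (vertical) for each of the 33 measured genes, with standard errors. Stmn1, Pcna, Mcm6 and Tpx2 lie at the upper left (lower in epidermis, higher in skin), Mcm3 at the lower right, and most genes below 0 on the vertical axis.

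Different probes of a gene agreed on the averaged effect more closely than on the difference between tissues. For the 17 genes with more than 1 kept probe, the median range over probes was 0.20 for the averaged genotype effect and 1.13 for the difference of the genotype effects, whose standard error is larger by design. In 10 of the 17 a probe passed the test of the difference and another did not, and no gene had probes called in opposite directions. For Mcm6 the brightest probe (ILMN_1217331) gave -1.48 in epidermis and 1.06 in skin, while ILMN_2803399 gave -0.36 and -0.43 and ILMN_1233857 gave -0.22 and -0.61. The second Top2a probe (ILMN_1255436) read -1.22 in epidermis and 0.07 in skin, against 0.01 and -0.90 by the brighter one. The second Nusap1 probe (ILMN_1231500) read -1.79 and 0.53, and the second Rrm1 probe (ILMN_1258715) 1.02 and -1.37, against 0.16 and -0.53. Conversely, the 3 Birc5 probes were all lower in Krt1-/- skin (-1.02, -0.88 and -0.59), although in the averaged effect only the brightest passed (-0.49, against -0.26 and -0.20), and the 3 Kif23 probes all lower in the averaged effect (-0.84, -0.47 and -0.50). Between tissues the Kif23 probes differed, at 0.07, -0.33 and 0.61. The second Cenpa probe, near background, had an averaged effect of 0.12.

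**Figure D5:**
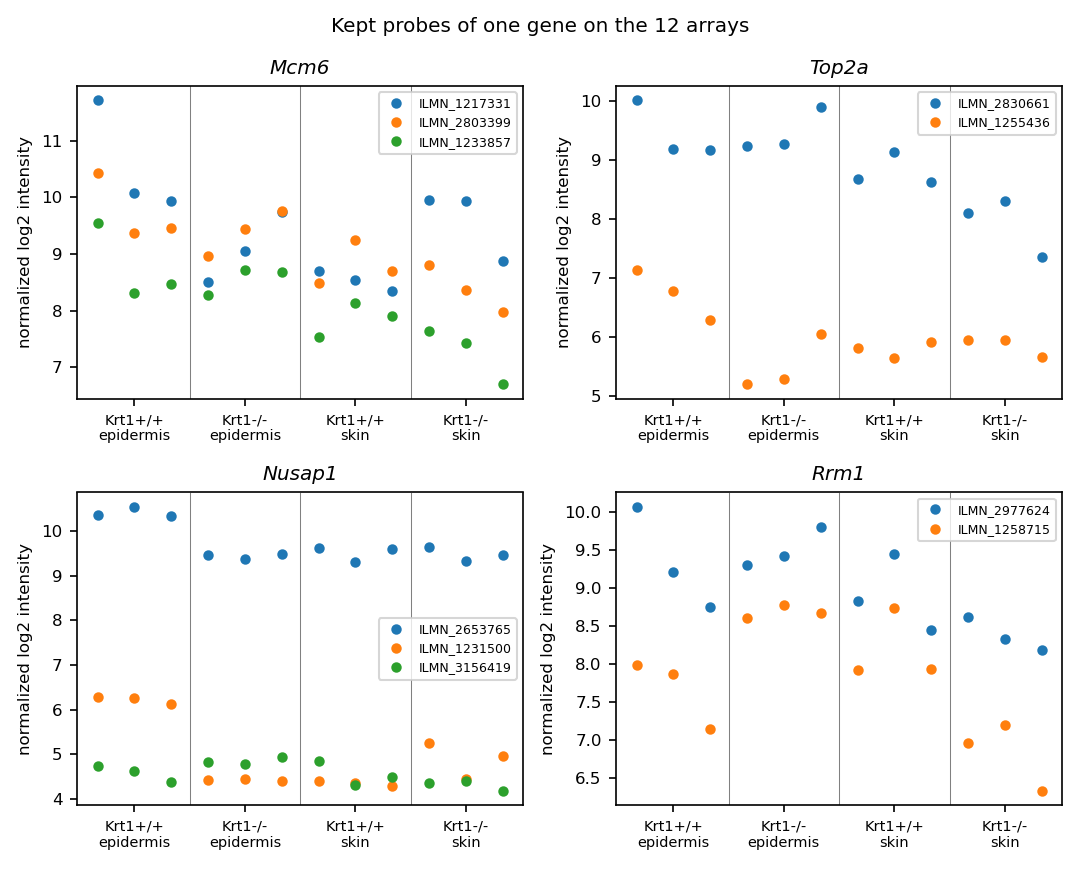
Normalized log2 intensity of each kept probe (colours) of Mcm6, Top2a, Nusap1 and Rrm1 on the 12 arrays, 3 per group. The blue Mcm6 probe is high in Krt1+/+ epidermis and Krt1-/- skin, while its orange and green probes follow tissue.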

How the data were processed

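Total RNA from newborn mouse epidermis and full-thickness skin was labelled with biotin and hybridised to Illumina bead arrays, per the labels' protocols. The authors deposited a table of non-normalized probe intensity values with detection p-values, used here, and a normalized table. The normalized table was put on the log2 scale here and used as an alternative. Its software and normalization were not given in the sources used here. Of 45281 probes, 34885 had 1 gene symbol in the platform annotation, 18 had several and 10378 had none. With limma 3.58.1 in R 4.3.3, intensities were background-corrected from the detection p-values (neqc, offset 16), quantile-normalized and put on the log2 scale. Probes with detection p under 0.05 on at least 3 arrays were kept (21712), and the probe with the highest mean stood for its gene. A 4-group linear model with empirical Bayes moderation was fitted to 12099 genes, and p-values were adjusted by Benjamini-Hochberg over all of them. "Rose", "fell" and "called" mean an adjusted p under 0.05. Where no array of a group detected a gene, its fold was bounded against the lowest detected signal.

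The genes, lists, tests and alternatives were chosen with earlier results of these data known. Values per array are given for Top2a, Cdk1, Birc5, Mcm2, Mcm5, Pcna, Rrm2, Tyms and Stmn1 and for the 4 genes of each list with the smallest p in each genotype contrast. Gene lists other than the 41 are described by counts and medians. Same-numbered replicates did not deviate together (correlation -0.21 to 0.28 over 18 pairs, 2 over 0.1), so no pairing was used. No arrays held identical values. On simulated data with the same design, 67 of 12099 genes were changed by 0.5 on the log2 scale, 67 by 1 and 66 by 2. The averaged test recovered 26.9% of genes changed by 0.5 and 94% of those changed by 1. The shares were 5.97% and 62.7% for epidermis and 2.99% and 64.2% for skin. In the data far more genes were called (31.8% in epidermis and 30.7% in skin). The Benjamini-Hochberg cutoff is then less strict, so the simulated shares do not carry over to the data. Alternatives covered the background correction, normalization, filter, choice of probe, variance model, replicate block and each array left out; the choice of the second brightest probe was added after seeing the data.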

Additional observations from a re-analysis of the deposited data

Results flagged for a closer look

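For 12 of the 33 measured genes the genotype effect in epidermis differed from that in skin, by limma's test of the difference with adjusted p under 0.05. In 7 the effect was lower in epidermis: the difference of the log2 effects was -5.33 for Stmn1, -5.13 for Pcna, -2.54 for Mcm6, -2.33 for Tpx2, -1.72 for Ccna2, -0.94 for Nusap1 and -0.76 for Ube2c. The values of Ccna2 and Ube2c are against background and not independent of the filter, since both were kept only through Krt1+/+ epidermis: Ccna2 was undetected in Krt1-/- epidermis and Krt1+/+ skin, and Ube2c in every group but that one. In 5 it was higher in epidermis: 2.12 for Mcm3, 1.18 for Kif11, 1.07 for Cdk1 (1.0707), 1.07 for Birc5 (1.0689) and 0.88 for Bub1b. The call was lost for Cdk1 with any of 9 arrays left out and for Ube2c with any of 4, and the other 10 kept it with each of the 12 arrays left out. The same contrast is the last 6 minus the first 6 columns of the deposited table, so a tissue-dependent genotype effect and the column split cannot be told apart. All 12 genes lie in a comparison in which 30.9% of all genes passed.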

How the results depend on the processing

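Of 5511 values of single genes under other settings, 11 changed sign after being called in at least 1 of the settings compared, all with the second brightest probe: Top2a in epidermis (-1.22), in skin (0.0689), for the difference (-1.29) and between tissues in Krt1-/- (0.35), Nusap1 in skin (0.53), Cenpa averaged over tissues (0.12), Mcm6 for the difference (0.0685) and between tissues in Krt1-/- (-1.01), Rrm2 for the difference (1.5), and Kif23 (-0.52) and Anln (0.28) between tissues in Krt1-/-. The cause was not tested. Of the rest, 5061 kept direction and side of the threshold, 337 lost the threshold and 102 gained it.

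Requiring at least a 1.5-fold change left, for S phase genes, mitosis genes and all genes in turn, 1, 3 and 854 in epidermis, 1, 1 and 773 in skin, 0, 0 and 250 for the averaged genotype effect, 3 mitosis genes and 1471 genes for the difference, 2, 3 and 2051 between tissues in Krt1+/+, 1, 4 and 1371 in Krt1-/-, and 1, 1 and 1185 averaged over genotypes; this is a stricter question by construction. Median centring left 2 S phase genes in epidermis, 3 mitosis genes in skin, 4 mitosis genes for the difference, and 0 S phase genes, 1 mitosis gene and 1848 genes for the averaged effect. The split of all genes in that effect was then 1127 higher and 721 lower, against 1324 and 1601 with quantile normalization. The 2 S phase calls of the averaged effect became 0 without background correction, with quantile normalization within each tissue and in the deposited normalized table, and 1 with no detection filter, with the mean of probes and with the second brightest probe.

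With 1 array left out in turn, the S phase count ranged from 2 to 4 in epidermis, 2 to 6 in skin, 0 to 1 for the averaged effect and 3 to 6 for the difference, and from 3 to 5 between tissues in Krt1+/+, 6 to 8 in Krt1-/- and 8 to 11 averaged over genotypes. The mitosis count ranged, in the same order, from 5 to 7, 7 to 9, 5 to 9, 7 to 10, 6 to 8, 8 to 11 and 11 to 15. The count of all genes ranged from 2798 to 3943, 2625 to 3819, 2266 to 3036, 3119 to 3674, 4026 to 5187, 3803 to 4882 and 4426 to 5162. The replicate block gave 7 mitosis genes and 2 S phase genes for the averaged effect and moved no other count by over 1.5 times; in it Bub1b had an adjusted p of 0.0531. In the simulation, which changed far fewer genes than were called in the data, effects of 0.5 on the log2 scale were mostly missed within a tissue.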
